A study of Caenorhabditis elegans with 15 samples.

Results

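The genes *lbp-1* to *lbp-9* of Caenorhabditis elegans encode lipid binding proteins of the fatty acid binding protein family. All 9 were found by name among the 16259 genes of the deposited count table, and all 9 passed the filter on low counts that left 13720 genes for testing. They were measured in poly-A RNA of whole L2 larvae grown at 20 °C on plates with bacteria, in 5 libraries of *sma-3* mutants, 5 of *sma-6* mutants and 5 of the wild type, strain N2, whose genotype the labels give as WT. The labels name no allele for either mutant and no treatment, and all 3 genotypes shared the stage and the food. Nothing in them says that the libraries of a genotype came from separate cultures, so p-values measure the spread between these libraries, which may be technical.

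Proteins of this family fold into a small barrel that holds a fatty acid or a similar hydrophobic molecule and carries it through an aqueous compartment. In this nematode *lbp-1*, *lbp-2* and *lbp-3* are known to encode forms with a secretion signal, and *lbp-3* has been described as a lipid carrier that acts between fat tissue and neurons. *lbp-8* is known as a carrier of lysosomal lipid signals to the nucleus, downstream of the lipase gene *lipl-4* and upstream of the nuclear receptor genes *nhr-49* and *nhr-80*, and *lbp-5* has been tied to fat storage. SMA-6 is a receptor for the bone morphogenetic protein DBL-1, and SMA-3 is a Smad that acts downstream of it in the nucleus. This pathway sets body size and also affects fat stores. The comparisons address how transcripts of the lipid carriers differ in mutants of either gene, and where the mutants differ from each other.

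Library totals ranged from 16.5 to 48.3 M counts. The transcripts of the mutated genes were low in the matching mutants, at 8.85 to 10.8 CPM in *sma-3* mutants against 22.6 to 32.5 CPM in wild-type libraries for *sma-3*, and at 8.83 to 9.75 CPM in *sma-6* mutants against 37.2 to 47.7 CPM in wild-type libraries for *sma-6*. *sma-6* transcripts were also lower in *sma-3* libraries, at 23.2 to 27 CPM, below all wild-type libraries. *sma-3* transcripts in *sma-6* libraries, at 21.8 to 25.4 CPM, overlapped with the wild type. Markers of intestine, epidermis, muscle, pharynx, neurons, coelomocytes and germline were detected in all 3 genotypes. A pair of wild-type libraries stood apart. Replicate 5 scored 22.97 on the first principal component, among the *sma-3* libraries (13.33 to 23.15) and away from the other wild-type libraries (-6.98 to -2.82). Replicate 3 had a summed level of the 6 vitellogenin genes, the yolk proteins of adult hermaphrodites, of 234 CPM. That sum was 5.61 to 7.80 CPM in the remaining 4 wild-type libraries, 8.18 to 15.1 CPM in *sma-3* libraries and 3.97 to 20.7 CPM in *sma-6* libraries. Genotypes occupied separate blocks of the sample-sheet numbers in the labels, so library order and genotype cannot be told apart.

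The genes lie on 3 chromosomes, mostly in neighbouring groups. In WBcel235, the build named in the submitters' processing notes, *lbp-3*, *lbp-1* and *lbp-2* follow each other on the plus strand of chromosome X (3257372 to 3258155, 3259142 to 3259812 and 3260610 to 3261470), with gaps of 986 and 797 bases and no annotated gene between them. On the minus strand of chromosome I, *lbp-6* (6728296 to 6729376) and *lbp-5* (6731267 to 6732276) are 1890 bases apart, with only *ant-1.2*, an adenine nucleotide carrier gene, in the gap. *lbp-7* (13879552 to 13880213) and *lbp-8* (13890773 to 13891364) lie 10559 bases apart on the plus strand of chromosome V. *lbp-9* (2068449 to 2069142) and *lbp-4* (7820578 to 7821477), also on the plus strand of chromosome V, stand alone. All 9 are annotated as protein-coding, with 2 to 4 coding exons and longest proteins of 135 to 165 residues.

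**Figure D1:**
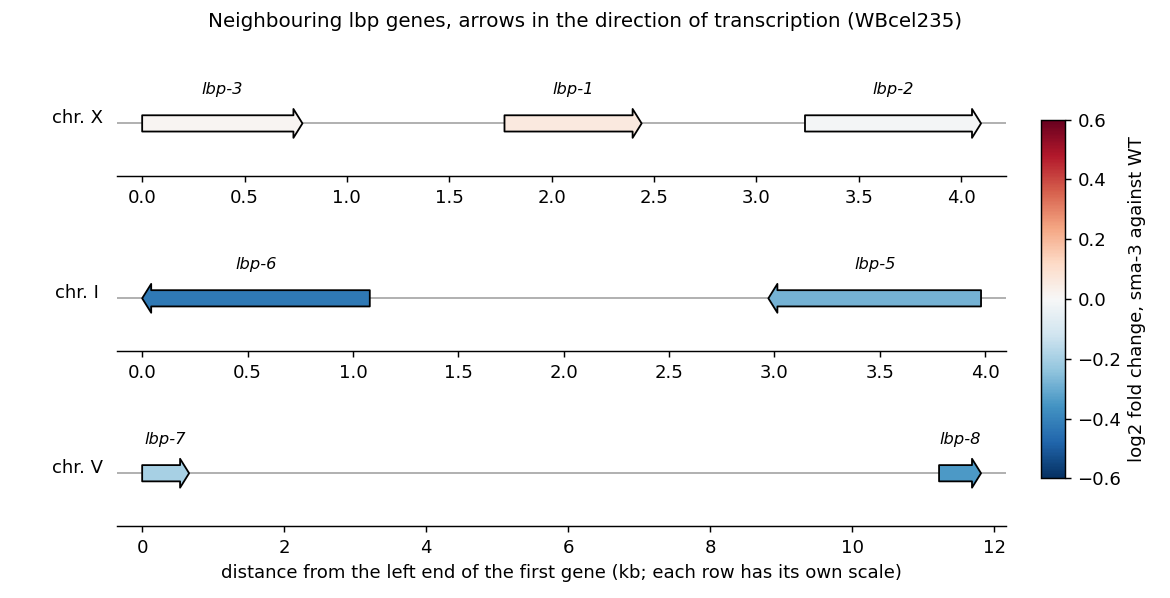
Positions of the 7 *lbp* genes that have a family neighbour, in kb from the left end of the first gene of each row, with arrows in the direction of transcription. Colours give the log2 fold change in *sma-3* mutants against the wild type: the chromosome I pair is blue (-0.43 and -0.28), the chromosome X trio near white (-0.01 to 0.06).

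Exons of *lbp-6* overlap 35 bases of the touch-receptor subunit gene *mec-6* on the opposite strand, 6.64% of the *lbp-6* exon length. The libraries were made with a stranded kit, but the strand setting of the read counting is not given in the sources used here. *mec-6* averaged 6.78 ± 1.33 CPM in *sma-3* mutants, 4.11 ± 0.378 CPM in *sma-6* mutants and 5.98 ± 1.36 CPM in the wild type (SD, n = 5 each). An overlap of 5 bases links *lbp-9* to *Y40B10A.9* in the same way. How far reads of similar family members were exchanged cannot be seen from the counts.

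Levels between the genes were compared as RPKM, CPM per kilobase of exon with library sizes scaled by TMM, which corrects for composition. *lbp-6* was highest in every genotype, at 987 ± 112 RPKM in *sma-3* mutants, 1060 ± 82.8 RPKM in *sma-6* mutants and 1330 ± 116 RPKM in the wild type (SD, n = 5 each). In the wild type it ranked 114 among 13575 tested genes with an annotated length. It made up 54.9% ± 2.03 of the summed RPKM of the family in *sma-3* mutants, 53.2% ± 2.01 in *sma-6* mutants and 59.6% ± 0.776 in the wild type. The summed level of the family was 1570 to 1980 RPKM in *sma-3* libraries, 1860 to 2130 RPKM in *sma-6* libraries and 2140 to 2540 RPKM in wild-type libraries.

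At the other end stood *lbp-8*, at 1.66 ± 0.435 RPKM in *sma-3* mutants, 3.80 ± 1.22 RPKM in *sma-6* mutants and 2.09 ± 0.400 RPKM in the wild type. The mean of *lbp-6* was 595 times that of *lbp-8* in *sma-3* mutants, 279 times in *sma-6* mutants and 636 times in the wild type. The order in the wild type was *lbp-6*, *lbp-9* (227 RPKM), *lbp-2* (206 RPKM), *lbp-3* (117 RPKM), *lbp-7* (109 RPKM), *lbp-5* (90.6 RPKM), *lbp-4* (85.6 RPKM), *lbp-1* (63.5 RPKM) and *lbp-8*. Wild-type libraries overlapped between *lbp-9* and *lbp-2*, between *lbp-3* and *lbp-7* and between *lbp-5* and *lbp-4*, and did not overlap between the other neighbours. In *sma-3* mutants *lbp-2* (204 ± 5.67 RPKM) stood above *lbp-9* (187 ± 18.5 RPKM) with overlapping libraries. In *sma-6* mutants *lbp-9* (271 ± 15.5 RPKM) was above *lbp-2* (200 ± 15.7 RPKM) with no overlap.

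**Figure D2:**
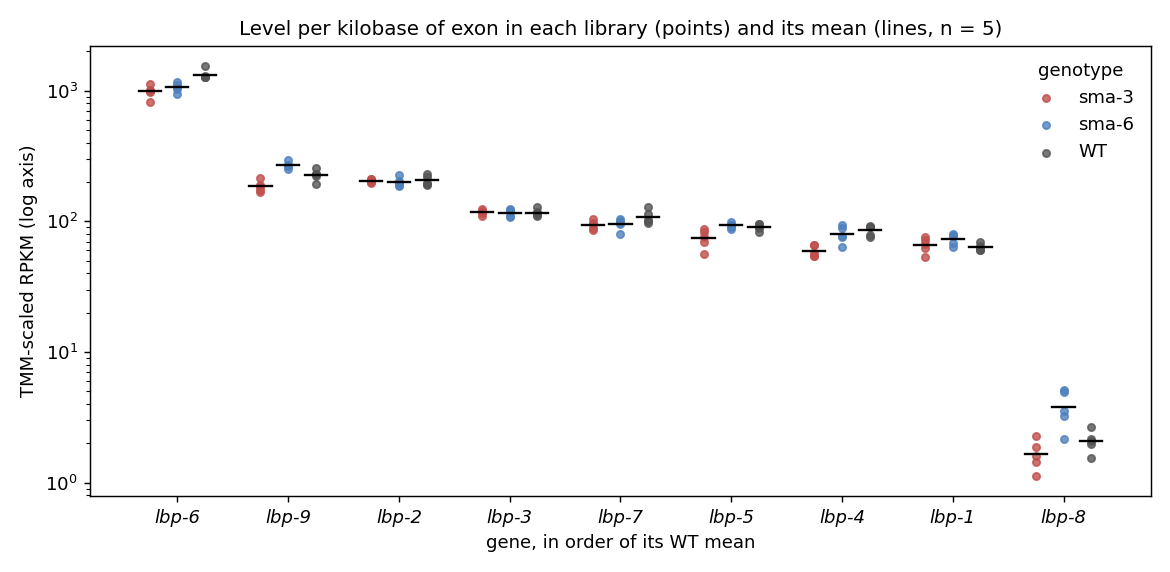
RPKM of each *lbp* gene in each library (points) with the mean of 5 libraries (lines), on a log axis, with *sma-3* mutants, *sma-6* mutants and the wild type side by side. *lbp-6* is the highest and *lbp-8* the lowest gene in all 15 libraries, and the other 7 lie between them.

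In *sma-3* mutants 4 of the 9 genes were lower than in the wild type and 0 were higher at an adjusted p under 0.05. This p came from the quasi-likelihood test of edgeR and was adjusted by Benjamini-Hochberg over all 13720 genes. DESeq2 and limma-voom also called 4 lower and 0 higher, and at an unadjusted p under 0.05 edgeR had 5 lower and 0 higher. With library totals as the only scaling 2 members were called, *lbp-4* and *lbp-6*, and with each library left out in turn 2 to 4 were. Over all tested genes 14.6% passed, 10.2% lower and 4.4% higher. The lower genes were *lbp-4*, *lbp-5*, *lbp-6* and *lbp-9*, and the secreted trio of chromosome X was not among them. The median log2 fold change of the 9 genes was -0.28, against 0.01 over all tested genes. In *sma-6* mutants 1 gene was lower, *lbp-6*, and 1 was higher, *lbp-8*, where 6.5% of all tested genes passed, 3.51% lower and 3% higher. DESeq2 called 2 higher, *lbp-8* and *lbp-9*, and 1 lower, while limma-voom called 1 higher, *lbp-9* in place of *lbp-8*, and 1 lower. At an unadjusted p under 0.05 edgeR had 3 higher and 2 lower, and with each library left out in turn 0 to 2 members were called. The median of the 9 was -0.01, against 0.005 over all genes. Both comparisons used the same wild-type libraries.

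Compared directly, *sma-6* mutants had higher levels than *sma-3* mutants in 4 of the 9 genes and lower levels in 0, where 23.1% of all tested genes passed, 12.7% higher and 10.3% lower. These were *lbp-4*, *lbp-5*, *lbp-8* and *lbp-9*. DESeq2, limma-voom and the unadjusted p under 0.05 of edgeR gave 4 higher and 0 lower as well. With replicate number added to the edgeR fit as a block, which could be done for 13 libraries, only *lbp-9* kept its call. The call of *lbp-4* was also lost in these 13 libraries without the block. With all 15 libraries the median log2 difference of the 9 genes was 0.15, against 0.01 over all genes. The direction of calls over all genes moved with the scaling: with library totals alone the higher share of calls was 65.9% in place of 30.2% in *sma-3* mutants, and 37.9% in place of 55.2% between the mutants. Libraries of the genotypes did not overlap for 2 of the 9 genes when *sma-3* mutants were set against the wild type (9.7% of all tested genes), for 1 when *sma-6* mutants were (8.24%) and for 2 when the mutants were set against each other (15.9%).

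**Figure D3:**
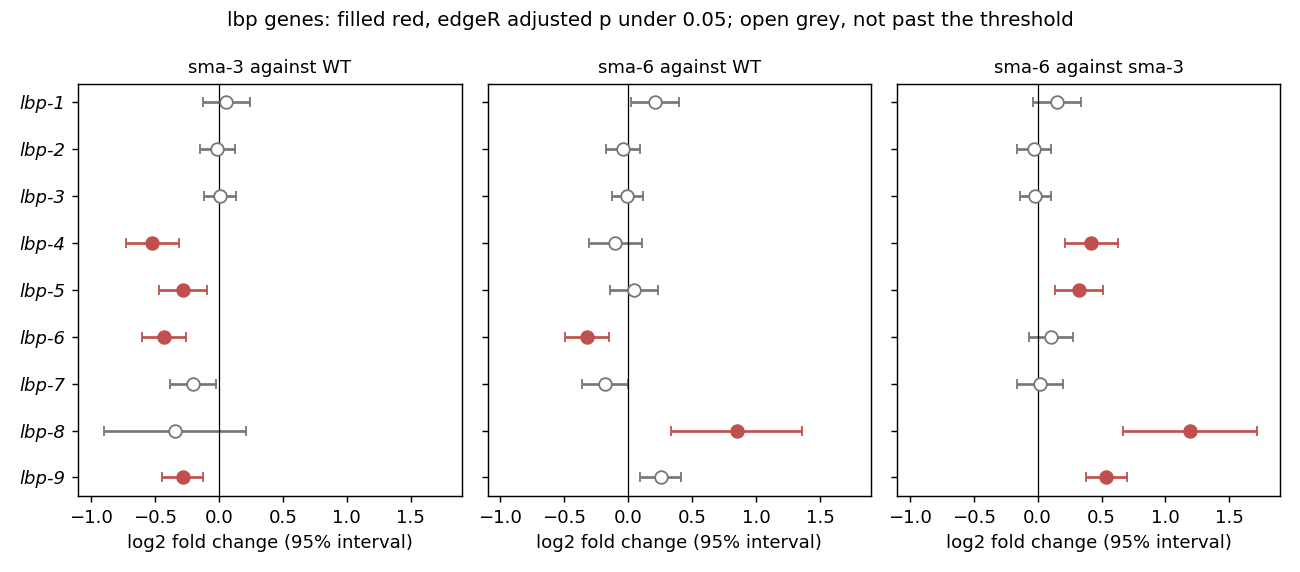
Log2 fold changes with 95% intervals of the 9 *lbp* genes in *sma-3* mutants against the wild type, *sma-6* mutants against the wild type and *sma-6* against *sma-3* mutants. Filled red points passed an adjusted p of 0.05: 4, 2 and 4 genes in the 3 panels.

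The secreted forms showed no difference past the threshold in any comparison. *lbp-2* averaged 155 ± 4.31 CPM in *sma-3* mutants, 152 ± 11.9 CPM in *sma-6* mutants and 156 ± 13.5 CPM in the wild type (TMM-normalized CPM, SD, n = 5 each). The 95% interval of its log2 fold change was -0.15 to 0.12 in *sma-3* mutants and -0.18 to 0.10 in *sma-6* mutants. *lbp-3* averaged 73.5 ± 3.54 CPM in *sma-3* mutants, 72.7 ± 4.36 CPM in *sma-6* mutants and 72.9 ± 4.88 CPM in the wild type. Its intervals were -0.11 to 0.13 in *sma-3* mutants, -0.13 to 0.12 in *sma-6* mutants and -0.14 to 0.11 between the mutants, so log2 changes beyond 0.14 in size lie outside them. *lbp-1* averaged 36.8 ± 4.86 CPM in *sma-3* mutants, 40.8 ± 3.99 CPM in *sma-6* mutants and 35.2 ± 2.25 CPM in the wild type. Its log2 fold change in *sma-6* mutants was 0.21, with an interval from 0.02 to 0.40 and an adjusted p of 0.179, and 3 of 5 *sma-6* libraries exceeded all wild-type libraries.

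*lbp-6*, the most abundant carrier of the family in these larvae, fell in both mutants. Its levels were 520.1, 593.6, 532.6, 525.8 and 428.9 CPM in *sma-3* libraries, 583.3, 544.2, 564.1, 497.2 and 613.5 CPM in *sma-6* libraries, and 669.8, 669.9, 809.5, 680.6 and 673.5 CPM in wild-type libraries. All mutant libraries lay below all wild-type libraries, while the mutants overlapped. The mean in *sma-3* mutants was 74.2% of the wild type, a log2 fold change of -0.43 (standard error 0.082, adjusted p = 0.00327). In *sma-6* mutants the mean was 80% of the wild type, a log2 fold change of -0.32 (standard error 0.082, adjusted p = 0.0237). The difference between the mutants was 0.11, with an interval from -0.07 to 0.28 (adjusted p = 0.363).

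The highest wild-type value, 809.5 CPM, belonged to replicate 3, the library with 234 CPM of vitellogenin transcripts. Without that library the log2 fold change of *lbp-6* was -0.36 in *sma-3* mutants (adjusted p = 0.0126) and -0.27 in *sma-6* mutants (adjusted p = 0.059). The call in *sma-6* mutants was also lost without *sma-6* replicate 2 (adjusted p = 0.063) or replicate 4 (adjusted p = 0.059). The same library was the highest of the wild type for *lbp-2*, *lbp-3*, *lbp-5*, *lbp-7*, *lbp-8* and *lbp-9*.

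Intestinal genes are given beside *lbp-6* because the intestine is the main fat-storing tissue of the larva. Of 9 intestine markers 4 were lower in *sma-3* mutants, *act-5* (log2 fold change -0.53), *pept-1* (-0.35), *ifb-2* (-0.25) and *elt-2* (-0.26), and 3 were lower in *sma-6* mutants, *ifb-2* (-0.48), *pept-1* (-0.40) and *elt-2* (-0.36). Over all tested genes 10.2% and 3.51% were lower. In *sma-3* mutants *asp-1* (0.23, adjusted p = 0.0675) and *cpr-1* (0.27, adjusted p = 0.103) went the other way without passing in edgeR's test. There DESeq2 called 1 higher and 4 lower, and limma-voom 0 higher and 4 lower. In *sma-6* mutants DESeq2 called 0 higher and 4 lower, and limma-voom 0 higher and 3 lower. Between the mutants *act-5* was higher (0.44) and *ifb-2* (-0.23) and *asp-1* (-0.25) lower in *sma-6* mutants. The list had a median of -0.25 for *sma-3* mutants, -0.22 for *sma-6* mutants and -0.10 between the mutants. The summed level of the 9 markers was 5800 to 7340 CPM in *sma-3* libraries, 5760 to 6850 CPM in *sma-6* libraries and 6000 to 6970 CPM in wild-type libraries. Their part in the *lbp-6* result was not tested. In RNA of whole animals, fewer cells of a type and less RNA per cell cannot be told apart.

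*lbp-5*, the neighbour of *lbp-6* on chromosome I, fell in *sma-3* mutants. Its levels were 36.6, 41.9, 40.1, 33.8 and 27.2 CPM in *sma-3* libraries, 47.9, 45.4, 45.4, 43.7 and 42.4 CPM in *sma-6* libraries, and 43.5, 45.6, 46.1, 42.6 and 40.04 CPM in wild-type libraries. The *sma-3* libraries were spread widely and overlapped with the wild type, with replicate 9 the lowest, and all lay below every *sma-6* library. The log2 fold change in *sma-3* mutants was -0.28 (standard error 0.090, adjusted p = 0.0431). It was -0.19 without *sma-3* replicate 9 (adjusted p = 0.0977), and in all the call was lost in 10 of the 15 fits that left out a library. It was kept without *sma-3* replicate 3 or 4, *sma-6* replicate 3 or 4, or wild-type replicate 5. Without wild-type replicate 3 the adjusted p was 0.105, and without wild-type replicate 5 it was 0.0249. *sma-6* mutants differed from the wild type by 0.04 (interval -0.14 to 0.23, adjusted p = 0.827) and from *sma-3* mutants by 0.33 (standard error 0.090, adjusted p = 0.0149). The call between the mutants was kept in all 15 fits that left out a library. With replicate number added to the edgeR fit as a block, in 13 libraries, it was lost (0.201, adjusted p = 0.0967).

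**Figure D4:**
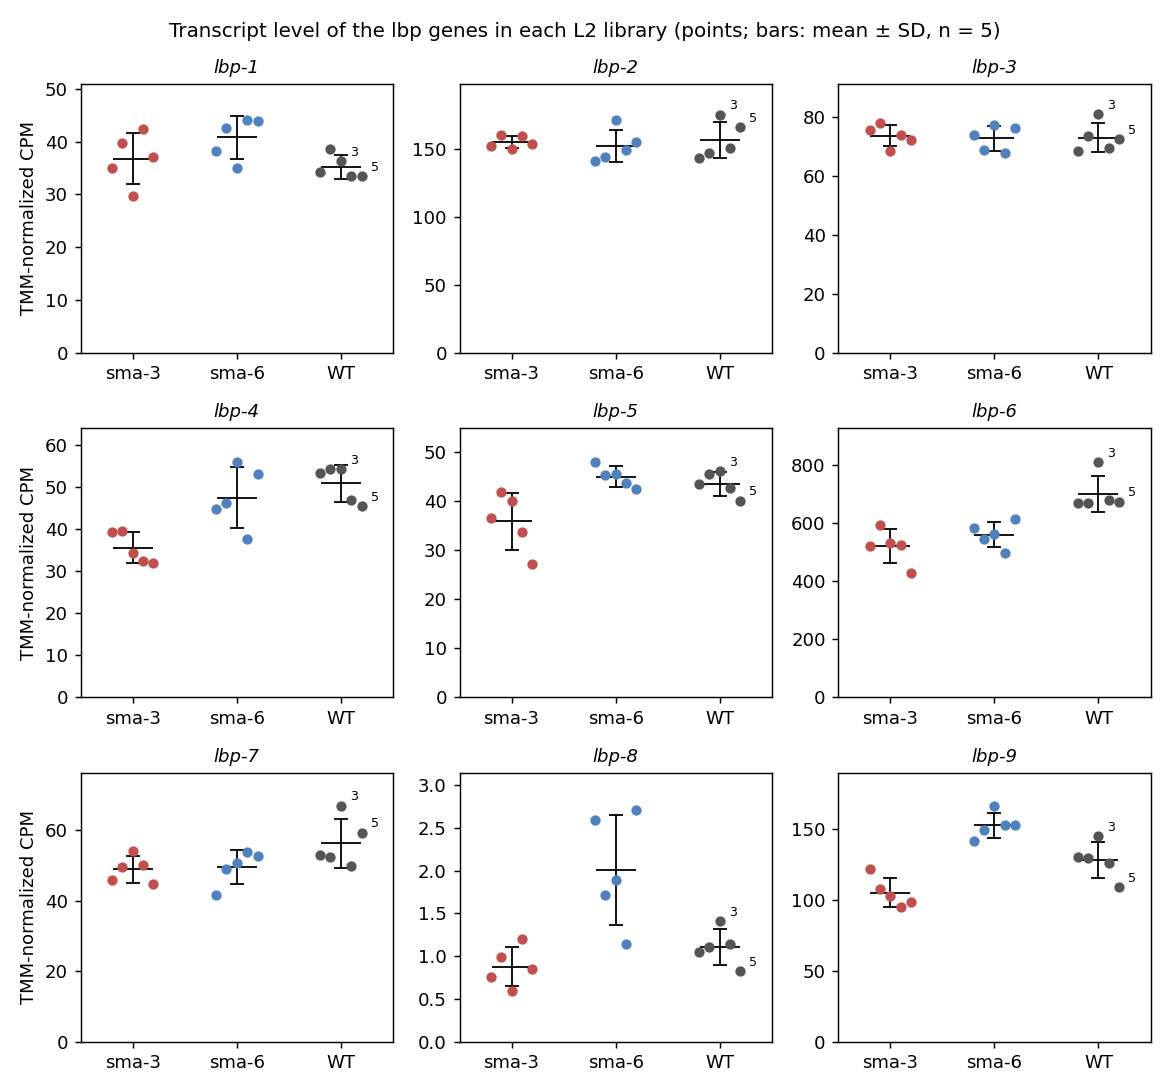
TMM-normalized CPM of the 9 *lbp* genes in each library (points) with mean ± SD (bars, n = 5) for *sma-3* mutants, *sma-6* mutants and the wild type, on linear axes from 0. Wild-type replicates 3 and 5 are numbered. *lbp-6* is below all wild-type libraries in both mutants, and *lbp-9* is higher in every *sma-6* library than in every *sma-3* library.

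*lbp-4* fell in *sma-3* mutants. Its levels were 39.3, 39.5, 34.2, 32.5 and 32.0 CPM in *sma-3* libraries, 44.7, 46.0, 55.9, 37.5 and 53.0 CPM in *sma-6* libraries, and 53.3, 54.2, 54.2, 46.8 and 45.4 CPM in wild-type libraries. All *sma-3* libraries lay below all wild-type libraries, and 4 of 5 *sma-6* libraries lay above all *sma-3* libraries. The mean in *sma-3* mutants was 69.9% of the wild type, a log2 fold change of -0.52 (standard error 0.098, adjusted p = 0.00304), and the call was kept in all 15 fits that left out a library. In *sma-6* mutants the log2 fold change was -0.10, with an interval from -0.31 to 0.10 (adjusted p = 0.605). Between the mutants it differed by 0.42 (standard error 0.099, adjusted p = 0.00608). That call was kept with each library left out in turn and lost without *sma-3* replicate 9 and *sma-6* replicate 6 together (0.33, adjusted p = 0.0561). It was also lost with replicate number added as a block to the fit of the 13 remaining libraries (0.271).

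*lbp-9* fell in *sma-3* mutants, and it was higher in *sma-6* mutants when the mutants were set against each other. Its levels were 122.1, 107.8, 103.1, 95.2 and 98.8 CPM in *sma-3* libraries, 141.9, 149.9, 166.2, 153.1 and 153.1 CPM in *sma-6* libraries, and 130.8, 130.1, 145.0, 126.3 and 109.0 CPM in wild-type libraries. Every *sma-6* library lay above every *sma-3* library, and each mutant overlapped with the wild type, where replicate 5 was the lowest. The mean in *sma-6* mutants was 145% of that in *sma-3* mutants, a log2 difference of 0.54 (standard error 0.076, adjusted p = 0.000199), the smallest p of the family in any comparison. Against the wild type the log2 fold change was -0.28 in *sma-3* mutants (standard error 0.076, adjusted p = 0.0203) and 0.25 in *sma-6* mutants (standard error 0.076, adjusted p = 0.0554).

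The comparisons of *lbp-9* with the wild type moved with single libraries. Without wild-type replicate 3 the log2 fold change in *sma-3* mutants was -0.23 (adjusted p = 0.0686), and without wild-type replicate 5 it was -0.34 (adjusted p = 0.00331). The call in *sma-3* mutants was also lost without wild-type replicate 2 (adjusted p = 0.0556), *sma-3* replicate 4 (0.0523), *sma-3* replicate 5 (0.0614) or *sma-3* replicate 9 (0.0631). In *sma-6* mutants *lbp-9* passed without wild-type replicate 3 (0.29, adjusted p = 0.0322) or *sma-3* replicate 2 (0.25, adjusted p = 0.0377). With library totals as the only scaling, the log2 fold change was -0.20 in *sma-3* mutants (adjusted p = 0.058) and 0.28 in *sma-6* mutants (adjusted p = 0.023), so that scaling exchanged the calls while keeping the directions. The difference between the mutants passed in all 15 fits that left out a library.

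Markers of the germline, the molting cycle and larval stage are given beside the genes that differed between the mutants. Of 6 germline markers 5 were tested, and 3 were higher in *sma-6* mutants when these were set against *sma-3* mutants, the P granule genes *pgl-1* (log2 difference 0.60), *glh-1* (0.65) and *pgl-3* (0.66). In edgeR's test 0 germline markers passed against the wild type in either mutant, as in DESeq2 and limma-voom (at an unadjusted p under 0.05, 2 were lower in *sma-3* mutants and 1 higher in *sma-6* mutants), with medians of -0.28 for *sma-3* mutants and 0.28 for *sma-6* mutants. The summed level of the list was 176 to 204 CPM in *sma-3* libraries, 221 to 359 CPM in *sma-6* libraries and 160 to 270 CPM in wild-type libraries, with wild-type replicate 5 the lowest. Molting-cycle markers had a median difference of 0.23 between the mutants, with 3 of 9 tested higher in *sma-6* mutants, *fbn-1* (0.84), *noah-1* (0.41) and *mlt-11* (0.40). Over all tested genes 12.7% were higher in this comparison. *mlt-10* (-0.41, adjusted p = 0.0947 in edgeR's test), *qua-1* (-0.09) and *mlt-8* (-0.07) went the other way without passing. *fbn-1* was also lower in *sma-3* mutants against the wild type (-0.68). The molting list had summed levels of 3720 to 5490 CPM in *sma-3*, 4580 to 6270 CPM in *sma-6* and 4400 to 5450 CPM in wild-type libraries. Of 6 larval stage regulators *lin-14* (-0.28), *lin-28* (-0.52) and *hbl-1* (-0.41) were lower and *lin-29* (0.34) higher in *sma-6* mutants against *sma-3* mutants, with a median of -0.13. Against the wild type *lin-28* (0.42) and *lin-14* (0.18) were higher in *sma-3* mutants. The shares over all tested genes were 10.3% lower and 12.7% higher in *sma-6* mutants against *sma-3* mutants. In *sma-3* mutants against the wild type 4.4% were higher. Summed levels of the 6 regulators were 996 to 1220 CPM in *sma-3* libraries, 978 to 1170 CPM in *sma-6* libraries and 1010 to 1070 CPM in wild-type libraries. No marker of the 3 lists was at 0 in a whole genotype. The part of any of these lists in the differences of *lbp-4*, *lbp-5*, *lbp-8* and *lbp-9* between the mutants was not tested.

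*lbp-8* had the largest log2 fold change of the family and the fewest counts. The 5 *sma-3* libraries held 16, 17, 15, 27 and 20 counts, the *sma-6* libraries 49, 38, 37, 26 and 56, and the wild-type libraries 19, 53, 27, 18 and 14, where 53 came from the library with 48.3 M counts. As levels these were 0.754, 0.994, 0.597, 1.197 and 0.847 CPM in *sma-3* libraries, 2.59, 1.72, 1.88, 1.15 and 2.70 CPM in *sma-6* libraries, and 1.05, 1.11, 1.41, 1.14 and 0.821 CPM in wild-type libraries. In *sma-6* mutants 4 of 5 libraries lay above all *sma-3* and all wild-type libraries, and replicate 4 lay among them. The mean in *sma-6* mutants was 182% of the wild type, a log2 fold change of 0.85 (standard error 0.24, adjusted p = 0.0441). It was 229% of the mean in *sma-3* mutants, a log2 difference of 1.19 (standard error 0.25, adjusted p = 0.00297).

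The call of *lbp-8* against the wild type was lost in 11 of the 15 fits that left out a library, with log2 fold changes from 0.71 to 1.00. It was kept without *sma-3* replicate 4 or 5, *sma-6* replicate 4 or wild-type replicate 3, and the call between the mutants was kept in all 15 of these fits. With replicate number added to the edgeR fit as a block, in 13 libraries, the call between the mutants was lost (0.952, adjusted p = 0.0731). In *sma-3* mutants the log2 fold change was -0.34, with an interval from -0.90 to 0.21 (adjusted p = 0.41), which at these counts covers both signs. Its neighbour *lbp-7* averaged 48.9 ± 3.81 CPM in *sma-3* mutants, 49.5 ± 4.75 CPM in *sma-6* mutants and 56.2 ± 6.87 CPM in the wild type. The log2 fold changes of *lbp-7* were -0.20 in *sma-3* mutants (interval -0.38 to -0.02, adjusted p = 0.122) and -0.18 in *sma-6* mutants (interval -0.361 to -0.002, adjusted p = 0.231). Wild-type replicates 3 and 5, at 66.9 and 59.2 CPM, were above every mutant library for *lbp-7*, and without both its log2 fold change was -0.08 in *sma-3* mutants and -0.06 in *sma-6* mutants.

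**Figure D5:**
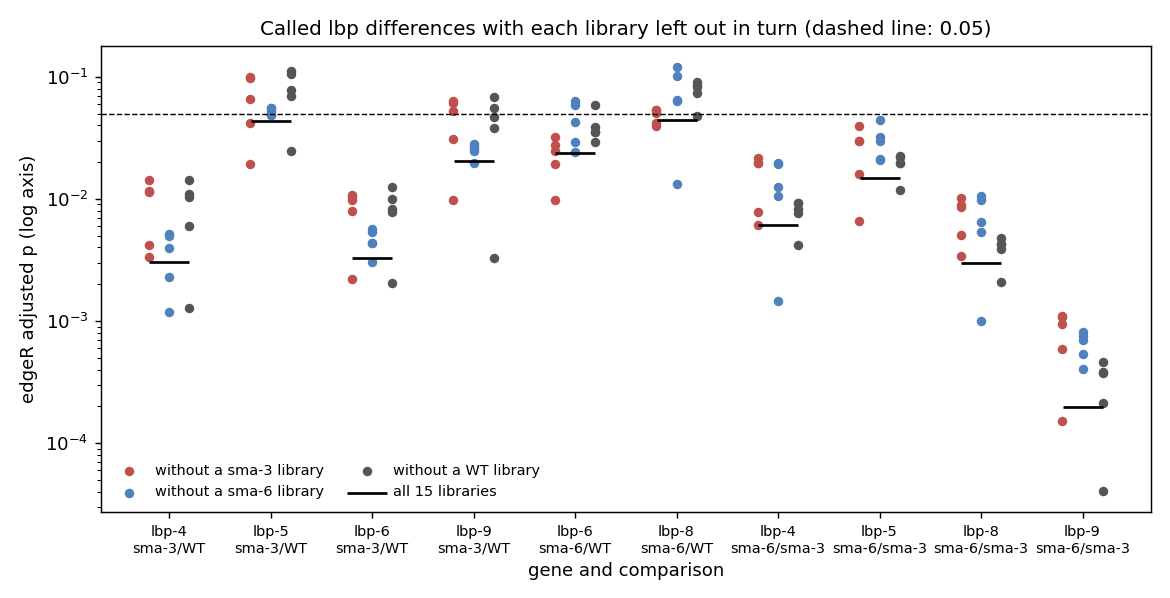
Adjusted p (log axis) of the 10 called *lbp* differences with each library left out in turn (points, coloured by the genotype of the library left out) and with all 15 libraries (black lines). Points of *lbp-4* and *lbp-6* in *sma-3* mutants and of the 4 differences between the mutants stay below 0.05, and those of *lbp-5* and *lbp-9* in *sma-3* mutants and of *lbp-6* and *lbp-8* in *sma-6* mutants fall on both sides.

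Leaving out wild-type replicates 3 and 5 together, a choice made after seeing the data, gave 3 called genes in *sma-3* mutants, 0 in *sma-6* mutants and 4 between the mutants. In that fit *lbp-6* stood at -0.27 (adjusted p = 0.109) and *lbp-8* at 0.86 (adjusted p = 0.107) in *sma-6* mutants, against 3 remaining wild-type libraries, while 631 genes in all passed there. *lbp-5* was the gene lost in *sma-3* mutants (adjusted p = 0.0587).

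In the authors' deposited table for *sma-3* mutants, the same 4 genes had a false discovery rate under 0.05. The authors' deposited table gives log2 fold changes of -0.54 for *lbp-4*, -0.31 for *lbp-5*, -0.44 for *lbp-6* and -0.29 for *lbp-9*.

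Partners of these carriers were examined as lists of other lipid genes. Of 8 tested genes of the *lbp-8* and *lbp-3* signalling routes, 2 were higher and 0 lower in *sma-3* mutants, the neuropeptide gene *nlp-11* (log2 fold change 0.25, adjusted p = 0.0327) and *egl-21*, a neuropeptide-processing carboxypeptidase gene (0.26, adjusted p = 0.0150). In *sma-6* mutants 0 of 8 passed in edgeR's test, 0 at an unadjusted p under 0.05 and 0 with DESeq2 or limma-voom. There *lipl-4* was at -0.17 (standard error 0.34), *nhr-49* at 0.03 (0.057) and *nhr-80* at -0.10 (0.082), with adjusted p of 0.831, 0.822 and 0.54. Between the mutants *egl-21* was lower in *sma-6* mutants (-0.21, adjusted p = 0.0287). Medians of this list were 0.07, 0.06 and -0.08 in the 3 comparisons. Of 15 lipid-responsive regulators, a list that shares *nhr-49*, *nhr-80*, *mdt-15* and *hlh-30* with the first, 1 was higher in *sma-3* mutants, *skn-1* (0.19), and 0 passed in *sma-6* mutants with edgeR, DESeq2 or limma-voom (2 higher at an unadjusted p under 0.05). Between the mutants *nhr-23* was higher (0.53) and *skn-1* lower (-0.26) in *sma-6* mutants.

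Of 6 tested acyl-CoA binding protein genes, carriers of activated fatty acids, *acbp-5* was lower in *sma-3* mutants (log2 fold change -0.26, adjusted p = 0.0437) and higher in *sma-6* mutants against *sma-3* mutants (0.29, adjusted p = 0.0163), and 0 passed in *sma-6* mutants against the wild type with edgeR, DESeq2 or limma-voom (1 higher at an unadjusted p under 0.05). Their medians were -0.23, -0.01 and 0.15 in *sma-3* mutants, in *sma-6* mutants and between the mutants. Of 17 acyl-CoA synthetase genes, which activate fatty acids, 3 were lower and 1 higher in *sma-3* mutants, *acs-7* (-0.35), *acs-19* (-0.24), *acs-5* (-0.27) and *acs-21* (0.37). In *sma-6* mutants 2 were lower, *acs-4* (-0.40) and *acs-19* (-0.29). Between the mutants 2 were higher and 3 lower in *sma-6* mutants, among them *acs-14* (0.46), *acs-4* (-0.34), *acs-20* (-0.56) and *acs-2* (1.68, standard error 0.49), a mitochondrial synthetase gene known as a target of *nhr-49*, which stood at 1.58 in *sma-6* mutants against the wild type (adjusted p = 0.0616). The medians of the synthetases were -0.06, 0.01 and 0.06.

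Of 12 tested genes for yolk, lipoprotein and sterol carriers, 4 were lower in *sma-3* mutants, *dsc-4* (log2 fold change -0.27), which encodes a lipoprotein assembly factor, *dhs-28* (-0.19), *nlt-1* (-0.31) and *lpr-1* (-0.35). The receptor gene *lrp-1* was higher in *sma-6* mutants against the wild type (0.58) and against *sma-3* mutants (0.38), as was *lpr-1* between the mutants (0.32). Of 10 genes for fat synthesis and storage, the lipid droplet gene *dhs-3* was lower in *sma-3* mutants (-0.48, adjusted p = 0.000199), and 0 passed in *sma-6* mutants with edgeR, DESeq2 or limma-voom (1 lower at an unadjusted p under 0.05). Between the mutants *dhs-3* (0.31), *pod-2* (0.31) and *fasn-1* (0.38), the last pair encoding fatty acid synthesis enzymes, were higher in *sma-6* mutants. Medians were -0.20, -0.04 and 0.16 for the carriers and -0.16, 0.03 and 0.22 for synthesis and storage. Shares called in these lists are to be read against the backgrounds of 14.6%, 6.5% and 23.1%.

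Genes with the most similar pattern were sought among 11654 others for *lbp-9*, *lbp-4* and *lbp-6*, the members with the smallest p over the 3 genotypes. All values are correlations of log2 CPM over the 15 libraries, which share depth, stage and composition, and are descriptions of the top of a search. *lbp-9* was most like *iff-1*, an eIF5A gene of the germline (Pearson r 0.969, Spearman rho 0.975), the peptidyl-prolyl isomerase gene *fkb-2* (0.955, 0.946) and *F54A3.5* (0.954, 0.957). With genotype means removed, r was 0.888, 0.888 and 0.774. *lbp-4* was most like *sucg-1* (0.972, 0.954), a succinyl-CoA ligase gene, *mrpl-21* (0.963, 0.979), a mitochondrial ribosomal protein gene, and *nud-1* (0.963, 0.914), a NudC homologue, with r of 0.919, 0.906 and 0.919 without genotype means. *lbp-6* was most like *cgr-1* (0.935, 0.968), a CRAL-TRIO domain gene, the acyl-CoA binding protein gene *acbp-1* (0.918, 0.875) and the glutathione S-transferase gene *gst-36* (0.914, 0.857), with r of 0.77, 0.92 and 0.876 without genotype means. Without the 2 libraries farthest from each member's median, r was 0.932 to 0.959 for *lbp-9*, 0.937 to 0.958 for *lbp-4* and 0.801 to 0.961 for *lbp-6*.

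Within the family, 36 pairs were compared on log2 CPM with genotype means removed, with two-sided permutation tests that exchanged libraries within genotypes (100000 resamples). None of the 36 passed after Benjamini-Hochberg adjustment, and 9 had an unadjusted p of Pearson's r under 0.05. The smallest was that of *lbp-4* and *lbp-9* (r 0.65, p = 0.00437, adjusted p = 0.102; rho 0.71, p = 0.00509, adjusted p = 0.176), with r 0.78 without the 2 libraries farthest on *lbp-4*. Among neighbours, *lbp-5* and *lbp-6* had r 0.71 (permutation p = 0.0154, adjusted p = 0.102; rho 0.56, p = 0.0428, adjusted p = 0.219), which was 0.29 without 2 libraries and so rested on them. *lbp-2* and *lbp-3* had r 0.69 (permutation p = 0.0111, adjusted p = 0.102; rho 0.56, p = 0.0487, adjusted p = 0.219), and 0.45 without 2 libraries. *lbp-7* and *lbp-8* had r -0.19 (permutation p = 0.527, adjusted p = 0.803; rho -0.18, p = 0.543, adjusted p = 0.974).

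Genes beside the family clusters were also read. Next to the chromosome X trio, *tba-9* and *sul-1* had log2 fold changes of 0.06 and 0.10 in *sma-3* mutants and 0.05 and -0.01 in *sma-6* mutants, none called. On the outer side of *lbp-5*, *smg-5* stood at 0.02 in *sma-3* mutants and 0.09 in *sma-6* mutants, not called in either. *mec-6*, which touches *lbp-6*, stood at 0.20 in *sma-3* mutants (adjusted p = 0.427) and -0.52 in *sma-6* mutants (adjusted p = 0.0721), and was lower in *sma-6* mutants against *sma-3* mutants (-0.72, adjusted p = 0.00498). Among tested genes that do not overlap *lbp-6*, *W02D3.4* was the nearest on its outer side. *W02D3.4* was lower in *sma-3* mutants (-0.23, adjusted p = 0.0351) and higher in *sma-6* mutants against *sma-3* mutants (0.23, adjusted p = 0.0279). Beside *lbp-7*, *cpt-5* was lower (-0.39, adjusted p = 0.0389) and *T22G5.3* higher (0.39, adjusted p = 0.0212) in *sma-3* mutants. Beside *lbp-8*, *srsx-19* was lower in *sma-6* mutants against *sma-3* mutants (-0.68, adjusted p = 0.0439), and *sptl-3* was not called in any comparison.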

How the data were processed

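Per the labels' protocols, TRIZOL-extracted RNA was enriched for poly-A on oligo dT beads and sequenced from a stranded TruSeq kit. The submitters' processing notes name bcl2fastq, STAR 2.5.2b, featureCounts 1.5.2, limma and build WBcel235, with no role or order. The authors deposited raw counts per gene for 16259 genes, each with at least 5 counts in some library, and CPM values that equalled each count scaled by its library total, within 0.0005, and served for that check alone. The deposited log2 fold changes, p-values and false discovery rates of *sma-3* against N2 are the authors' own.

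Counts were analysed in R 4.3.3 with edgeR 4.0.16: filterByExpr (minimum count 10, total 15), TMM factors and 1 quasi-likelihood fit to all 15 libraries with genotype as the factor. Standard errors came from the F statistic, and intervals are 95% and rest on the spread between libraries. limma 3.58.1 and DESeq2 1.42.0 were alternatives. The fit was tested on simulated counts with 200 changed genes. At 1.5-fold it recovered 74.5% of them in *sma-3* and 82.5% in *sma-6* libraries against the wild type. At 2-fold it recovered 96.5% and 97.5%. False calls were 3.94% to 10.3% of the calls, highest for *sma-6* at 1.5-fold. Changes smaller than 1.5-fold were not simulated. Ensembl 115 (WBcel235) gave exon lengths and positions for 16068 genes (98.8%).

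Depth was 16.5 to 48.3 M counts, where 3 counts equal 0.0621 to 0.182 CPM, a floor that covers counting error only. The 30 replicate pairs differed by chi-square values per degree of freedom of 5.31 to 42.3, above sampling noise. The genes and lists were chosen with earlier results of these data known. Named were all 9 members, up to 4 called genes of each list and comparison with the smallest p, and the 3 genes most like each of 3 members. Of 6 sperm markers 3 were in the table and none was tested. Sequences were not analysed here.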

Additional observations from a re-analysis of the deposited data

Results flagged for a closer look

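Wild-type replicate 3 stood apart from the other wild-type libraries for *lbp-6*, at 810 CPM against 669.8 to 680.6 CPM. It was 1 of 27 groups of 5 libraries examined, and chance flags about 1 in 20. The same library held 234 CPM of vitellogenin transcripts and the highest summed level of oocyte and eggshell markers of all 15 libraries. The part of these transcripts in the *lbp-6* value was not tested.

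Levels of *lbp-4*, *lbp-5*, *lbp-8* and *lbp-9* differed between *sma-6* and *sma-3* mutants in the direct test, with log2 differences of 0.42, 0.33, 1.19 and 0.54. Over all tested genes 23.1% passed there, 12.7% higher and 10.3% lower in *sma-6* mutants. In the fit of 13 libraries with replicate number as a block, only *lbp-9* kept its call. Library order and genotype cannot be told apart in this comparison.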

How the results depend on the processing

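Under all 9 alternatives of scaling, filter, tool or model, *lbp-4* and *lbp-6* in *sma-3* mutants, *lbp-6* in *sma-6* mutants and *lbp-9* between the mutants kept direction and call. The cause of the changes below was not tested. With library totals as the only scaling, 2 genes were called in *sma-3* mutants, where *lbp-5* stood at -0.202, *lbp-9* at -0.202 and *lbp-2* at 0.07, and in *sma-6* mutants *lbp-9* passed at 0.278 and *lbp-3* stood at 0.016. *lbp-7* between the mutants was then -0.039, and *lbp-2* averaged 211 RPKM in *sma-3* mutants. A filter of 1 CPM in 5 libraries gave 0.004 for *lbp-2* and -0.266 for *lbp-5*, no longer called, in *sma-3* mutants. With only the 2 genotypes compared, *lbp-5* in *sma-3* mutants (-0.271) and *lbp-8* in *sma-6* mutants (0.851) lost the call and *lbp-9* in *sma-6* mutants gained it (0.259). *lbp-9* also gained it with DESeq2 (0.251) and limma-voom (0.258), where *lbp-8* was not called (0.777).

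Same-numbered libraries had correlations of -0.123 to 0.127 (median 0.057), with 2 of 11 pairs over 0.1. Differently numbered libraries had -0.237 to 0.363 (median -0.004), with 11 of 64 pairs over 0.1. Of 13 libraries, 4 correlated best with their own number. These weak correlations do not settle whether the numbers pair the samples. The replicate block could be fitted to 13 libraries and gave 806, 522 and 1075 called genes in *sma-3* mutants, in *sma-6* mutants and between the mutants, against 1997, 892 and 3169. It called 1 member in *sma-6* mutants and 1 between the mutants. Under the block the calls of *lbp-5* in *sma-3* mutants (-0.173, adjusted p = 0.124), of *lbp-8* in *sma-6* mutants (0.691, adjusted p = 0.166), and of *lbp-4* (0.271, adjusted p = 0.0535), *lbp-5* (0.201, adjusted p = 0.0967) and *lbp-8* (0.952, adjusted p = 0.0731) between the mutants were lost, and *lbp-6* between the mutants stood at -0.017. Without the block the same 13 libraries gave 1004 and 1905 called genes in *sma-3* mutants and between the mutants, and 2 and 1 called members in *sma-3* and *sma-6* mutants. There the calls of *lbp-5* (-0.186) and *lbp-9* (-0.252) in *sma-3* mutants, of *lbp-8* in *sma-6* mutants (0.713) and of *lbp-4* between the mutants (0.33) were lost, and *lbp-2* in *sma-3* mutants stood at 0.0 and *lbp-7* between the mutants at -0.045.

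Leaving out each library in turn gave 1156 to 3069 called genes in *sma-3* mutants, with 2 to 4 called members there and 0 to 2 in *sma-6* mutants. In *sma-3* mutants the gene count was 1249 without *sma-3* replicate 9, and 1304, 1156, 1248 and 3069 without wild-type replicates 1, 2, 3 and 5, and 2 members were called without *sma-3* replicate 5 or 9 or wild-type replicate 2 or 3. Ranges in *sma-3* mutants were -0.043 to 0.04 for *lbp-2*, -0.012 to 0.059 for *lbp-3*, -0.342 to -0.186 for *lbp-5* and -0.337 to -0.228 for *lbp-9*. In *sma-6* mutants they were -0.086 to -0.004 for *lbp-2*, -0.028 to 0.026 for *lbp-3*, -0.357 to -0.272 for *lbp-6*, 0.714 to 0.996 for *lbp-8* and 0.2 to 0.293 for *lbp-9*. Between the mutants they were -0.054 to 0.005 for *lbp-3* and -0.023 to 0.059 for *lbp-7*. Without wild-type replicates 3 and 5 together, 0 members were called in *sma-6* mutants, with *lbp-2* at 0.048, *lbp-3* at 0.042, *lbp-6* at -0.266 and *lbp-8* at 0.858, while in *sma-3* mutants *lbp-2* stood at 0.075 and *lbp-5* at -0.294. Of the log2 values under all alternatives, 595 kept direction and call, 47 lost a call, 6 gained one and 27 changed sign, among members that were not called. Depth limits *lbp-8*, with 14 to 56 counts a library.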

Other observations

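Markers of other tissues were read for the same libraries. Summed epidermis markers were 3230 to 3830 CPM in *sma-3*, 2370 to 2910 CPM in *sma-6* and 2610 to 4420 CPM in wild-type libraries, and of 8 markers *rol-6* was lower in *sma-6* mutants (log2 fold change -0.53) and *rol-6* (-0.53) and *dpy-5* (-0.53) were lower in *sma-6* mutants against *sma-3* mutants. Body wall muscle markers summed to 11800 to 13200 CPM in *sma-3* libraries, 12700 to 15300 CPM in *sma-6* libraries and 10300 to 13000 CPM in wild-type libraries. There *myo-3* was higher in *sma-3* mutants (log2 fold change 0.33) and *unc-54* higher in *sma-6* mutants (0.43), and between the mutants *unc-54* was higher (0.39) and *myo-3* lower (-0.28) in *sma-6* mutants. Of 7 neuron markers *unc-104* was higher in *sma-3* mutants (0.26) and *rab-3* lower in *sma-6* mutants against *sma-3* mutants (-0.21). Of 6 pharynx markers 0 passed in any comparison with edgeR, DESeq2 or limma-voom, or at an unadjusted p under 0.05, and of 3 coelomocyte markers *lgc-26* was higher in *sma-6* mutants against *sma-3* mutants (0.19). Of 10 oocyte and eggshell genes tested 0 passed in the same ways. Of 3 vitellogenin genes tested 0 passed with edgeR, where 2 were lower in each mutant against the wild type at an unadjusted p under 0.05, and limma-voom called 1 lower in *sma-6* mutants against *sma-3* mutants. The summed vitellogenin level of the wild type was high in replicate 3 alone, at 234 CPM against 5.61 to 7.8 CPM in its other libraries.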
